A study of Rattus norvegicus with 6 samples.

Results

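The genes described here encode growth factors of the FGF and EGF families, their receptors and some related receptor tyrosine kinases, the adaptors that bind those receptors, and the genes that damp the signal. Members were chosen by gene symbol alone, with at least 10 expected counts summed over all 6 libraries, and 56 of the 13728 genes of the table analysed here were members. The symbols Fgf22, Nrg2, Nrg3 and Shc3 matched as well but had 1 or 2 counts in all. The members comprised 6 FGF ligands, 6 FGF receptors and binding proteins, 7 EGF family ligands, 4 EGF family receptors, 8 other receptor tyrosine kinases and their ligands, 5 adaptors, 4 Sprouty and Spred genes, 5 MAP kinase phosphatases, 8 other dual-specificity phosphatases and 3 ETV factors. The copy of the table used here is cut, with an incomplete last row, and symbols of the rule that it does not hold, Fgfr2 and Dusp6 among them, were not analysed here.

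The study compared rat endometrial epithelial organoids (rEEOs) with rat bone marrow mesenchymal stem cells (rBMSCs) as cells for repair of the injured endometrium, and bulk RNA-seq was performed on 3 samples of each. rEEOs are organoid-forming epithelial cultures grown in Matrigel, a basement membrane gel, from glandular fragments of the uteri of female Sprague-Dawley (SD) rats 5 weeks old, and were used at passages 3 to 5. Their expansion medium held recombinant EGF and FGF10 together with insulin, Wnt3a, R-spondin-1, noggin, the TGF-beta receptor inhibitor A83-01 and the ROCK inhibitor Y27632. rBMSCs, labelled with red fluorescent protein (RFP), were bought as cells and grown in dishes in DMEM/F12 with fetal bovine serum and no recombinant growth factor listed, and their strain, sex and age are not given in the sources used here. Cell type, culture format and medium therefore differed together and cannot be told apart in any comparison below. The labels do not say whether replicates came from separate animals or cultures, so p-values measure only the spread between these samples, which may be technical.

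Ligands of both families bind receptor tyrosine kinases at the cell surface, and the paired receptors phosphorylate each other, recruit adaptors and switch on RAS, RAF, MEK and ERK. FGFs bind their receptors together with heparan sulfate, and FGF receptors exist in splice forms that epithelium and mesenchyme use differently, so that each tissue can answer ligands made by the other. Active ERK induces its own brakes, the Sprouty and Spred proteins and the dual-specificity phosphatases, and raises ETV transcription factors, while in the uterus EGF family ligands from the epithelium are known for their part in embryo implantation.

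Libraries held between 10457958 and 15421501 expected counts, and the genes held made up between 81.3% and 82.7% of a library's TPM, an abundance corrected for transcript length. The 7 epithelial markers held summed to between 4284 and 4872 TPM in rEEOs and between 2.82 and 3.52 TPM in rBMSCs, where 5 of them (Epcam, Krt19, Krt18, Cdh1 and Cldn4) had no more than 3 counts in any library. The 7 mesenchymal markers summed to between 29042 and 31602 TPM in rBMSCs and between 0.54 and 1.28 TPM in rEEOs, with Col3a1, Pdgfrb, Pdgfra and Thy1 at no more than 3 counts. Both labels were thus borne out by their markers. Of 5 haematopoietic markers, Csf1r, Laptm5 and Spi1 had no more than 3 counts in any rEEOs library, although the list summed to between 32.3 and 134 TPM there and between 0.29 and 0.79 TPM in rBMSCs. The 3 endothelial markers summed to at most 0.5 TPM in any library, and the smooth muscle genes Des and Cnn1 to between 189 and 203 TPM in rBMSCs and at most 0.07 TPM in rEEOs. One library stood apart. The SD of log2(CPM + 1) had a median of 0.340 across genes in rEEOs and 0.088 in rBMSCs, and leaving rEEOs replicate 1 out brought the first value to 0.164. Values without that replicate are therefore given below for some of the genes where they differ.

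Of the 56 members, 48 had at least 10 counts in at least 3 libraries and were tested. A gene was called where its log2 fold change was over 2 in size and its adjusted p under 0.05, the study's own thresholds, here from edgeR's quasi-likelihood test over 10607 genes. In rEEOs, 10 members were called higher and 11 lower. That is 20.8% and 22.9% of the members tested, compared to 16.3% and 13.3% of all genes tested, or 43.8% against 29.7% for both directions. A further 4 members were higher and 6 lower with an adjusted p below 0.05 and a smaller change, and 17 did not pass, so that 64.6% of the members and 63.4% of all genes had an adjusted p below 0.05. The median log2 fold change was 0.36 over the members and 0.08 over all genes. TPM did not overlap between the cell types for 33 of the 48 members, or 68.8%, compared to 69.6% of all genes. For 15 of them (31.2%, compared to 31.1%) the rEEOs were higher, and for 18 (37.5%, compared to 38.4%) lower. In bulk samples, fewer cells with a transcript and less of it per cell cannot be told apart.

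**Figure D1:**
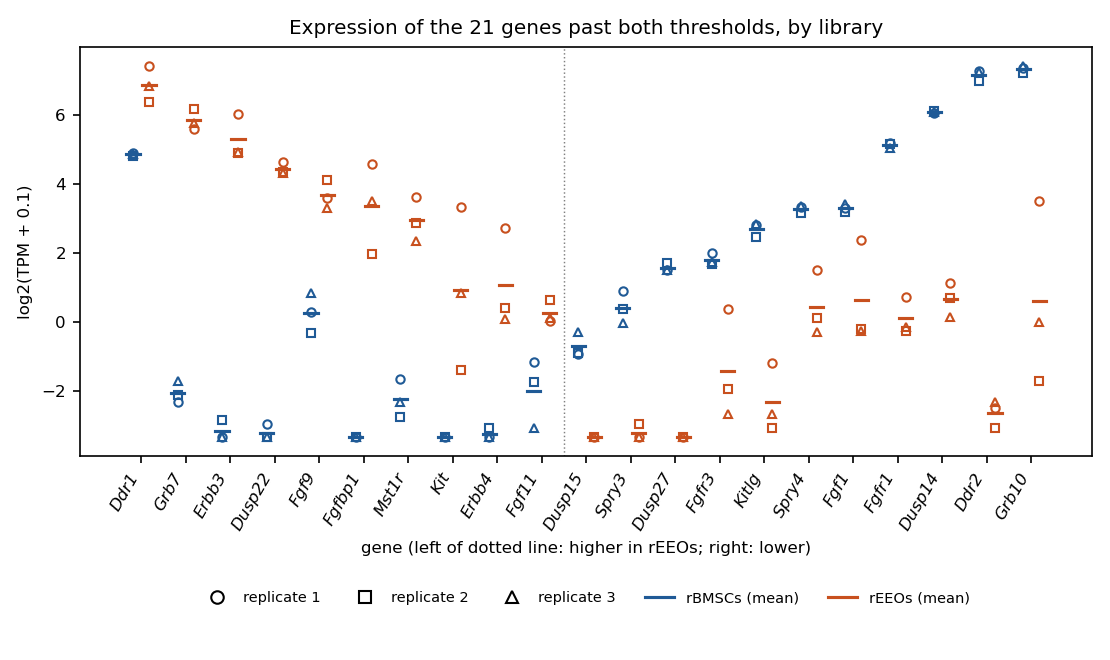
Expression of the 21 members called, as log2(TPM + 0.1) in each library, with blue for rBMSCs, orange for rEEOs, 1 symbol per replicate and a bar at the mean. Groups do not overlap for any of the 21 genes, and rEEOs replicate 1 is the highest of its group for Grb10 and Kit, at 11.30 and 9.99 TPM.

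The EGF receptor family differed in its composition more than in its sum. In rBMSCs it consisted of Egfr and Erbb2, and in rEEOs Erbb3 took the largest share. Erbb3, the receptor with an impaired kinase that signals through its partners, had 0, 0.04 and 0 TPM in rBMSCs replicates 1, 2 and 3 and 65.21, 29.60 and 30.37 TPM in rEEOs. It was at least 925-fold higher in rEEOs, computed against 3 counts in rBMSCs (edgeR, adjusted p = 1.55e-05). Erbb4, a receptor for neuregulins and some EGF ligands, had 0, 0.02 and 0 TPM in rBMSCs and 6.47, 1.23 and 0.96 TPM in rEEOs, at least 39.8-fold higher (edgeR, adjusted p = 0.00122), and at least 19.2-fold higher without rEEOs replicate 1. Both genes were present in every rEEOs library and at no more than 2 counts in any rBMSCs library.

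Egfr, the receptor for EGF itself, had 24.53, 19.40 and 25.56 TPM in rBMSCs and 9.90, 2.83 and 2.87 TPM in rEEOs. Every rEEOs library was below every rBMSCs library. EGF was added to the medium of the organoids, and its part in the level of Egfr was not tested. The log2 fold change was -1.99 ± 0.32 (SE, n = 3 against 3; edgeR, adjusted p = 0.00187), just inside the fold threshold, and without rEEOs replicate 1 it was -2.40, past it. Erbb2, which has no known soluble ligand and pairs with the others, had 22.37, 18.27 and 21.13 TPM in rBMSCs and 33.46, 14.83 and 10.79 TPM in rEEOs. These ranges overlapped, and the log2 fold change of 0.10 ± 0.29 (SE; edgeR, adjusted p = 0.782) turned to -0.25 without rEEOs replicate 1.

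As shares of the TPM summed over these receptors, Egfr made up 52.8% ± 1.72 (SD, n = 3) in rBMSCs and 6.94% ± 1.47 in rEEOs. Erbb2 made up 47.1% ± 1.66 and 27.9% ± 3.46. Erbb3 made up 0.0353% ± 0.0612 and 61.7% ± 5.44. The sum itself was 43.8 ± 5.23 TPM in rBMSCs and 69.5 ± 39.5 TPM in rEEOs, where it was 115 TPM in replicate 1 and 48.5 and 45.0 TPM in replicates 2 and 3. The shares were thus much closer between the rEEOs libraries than the levels were.

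**Figure D2:**
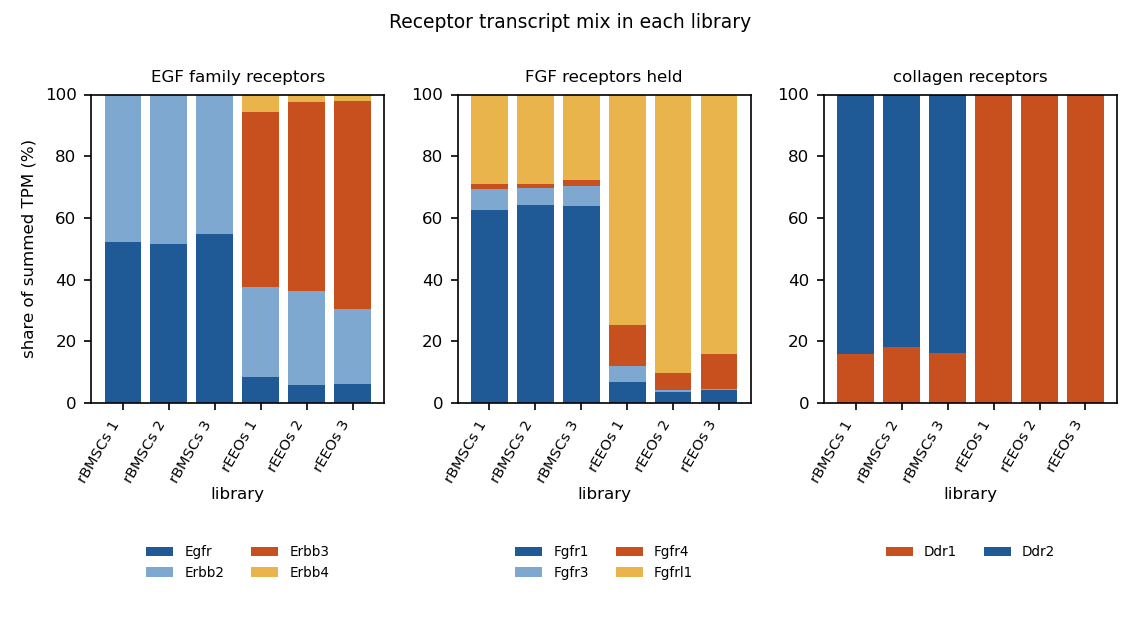
Share of the summed TPM (%) taken by each EGF family receptor, each FGF receptor held and each collagen receptor, with 1 stacked bar per library. Erbb3 takes 61.7% of the EGF receptor sum in rEEOs on average, Fgfrl1 82.9% of the FGF receptors held and Ddr1 99.9% of the collagen receptors, while Egfr, Fgfr1 and Ddr2 take 52.8%, 63.6% and 83.2% in rBMSCs.

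Of the 6 EGF family ligands tested, none was called in either direction. Hbegf, the heparin-binding ligand for Egfr and Erbb4, was the most abundant in both cell types with 19.72, 18.50 and 22.18 TPM in rBMSCs and 26.60, 39.04 and 89.25 TPM in rEEOs. It was higher in all 3 rEEOs libraries, which differed widely among themselves. The log2 fold change was 1.69 ± 0.52 (SE; edgeR, adjusted p = 0.0281), and it was 2.11 without rEEOs replicate 1 (adjusted p = 0.00109) and 0.98 without replicate 3 (adjusted p = 0.0606). Without any 1 of the rBMSCs libraries the adjusted p lay above 0.05 as well, at most 0.087.

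Tgfa had 9.79, 6.75 and 8.41 TPM in rBMSCs and 31.57, 8.18 and 9.47 TPM in rEEOs, so that only replicate 1 stood above the rBMSCs range. Its log2 fold change of 1.26 ± 0.39 (SE; edgeR, adjusted p = 0.0294) did not hold its adjusted p without any 1 of the rBMSCs libraries, up to 0.0986. Without rEEOs replicate 1 the log2 fold change of Tgfa was 0.71 (edgeR, adjusted p = 0.00559). Epgn, or epigen, was the only ligand of the family that was lower in rEEOs with an adjusted p below 0.05, at 1.83, 1.19 and 2.04 TPM against 1.11, 0.64 and 0.48 TPM (log2 fold change -0.96 ± 0.35, SE; edgeR, adjusted p = 0.0487, and up to 0.149 with 1 library left out). Ereg (epiregulin) and Areg (amphiregulin) behaved alike between the rEEOs libraries. Ereg had 2.00, 2.19 and 2.07 TPM in rBMSCs and 1.82, 8.01 and 8.06 TPM in rEEOs. Areg had 3.03, 1.67 and 1.86 TPM in rBMSCs and 0.84, 4.46 and 4.01 TPM in rEEOs. Replicate 1 was the lowest of all 6 libraries for both, and neither passed the test (edgeR, adjusted p = 0.0508 and 0.308). Without rEEOs replicate 1 both passed the adjusted p, and Ereg the fold threshold as well. The log2 fold changes were then 2.40 for Ereg and 1.41 for Areg (edgeR, adjusted p = 0.000238 and 0.00692). Nrg1, a ligand of Erbb3 and Erbb4, lay between 3.97 and 4.72 TPM in rBMSCs and between 4.10 and 9.02 TPM in rEEOs (edgeR, adjusted p = 0.768). Egf transcripts were close to absent in both, at no more than 9 counts in any library, and the gene was not tested.

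**Figure D3:**
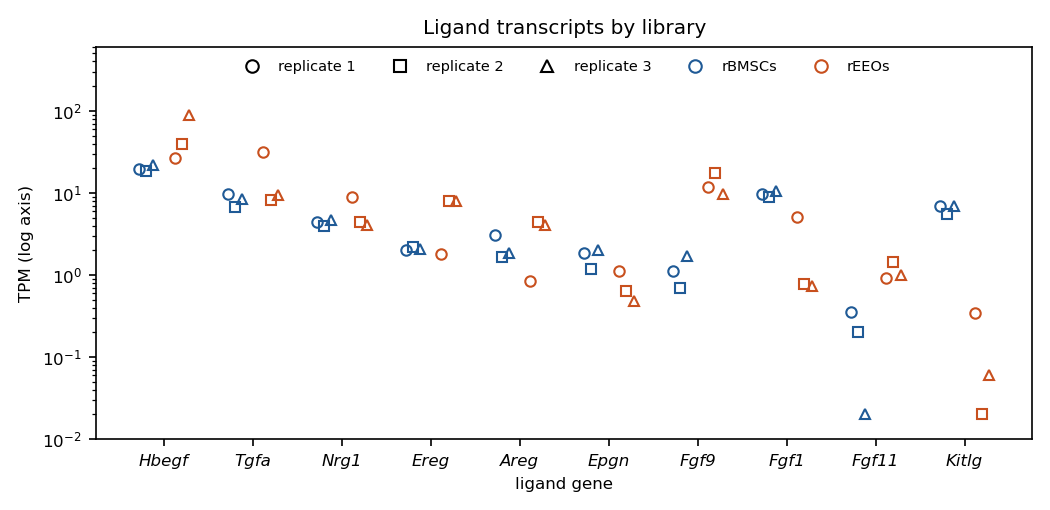
TPM of 10 ligand genes in each library on a log axis, with blue for rBMSCs, orange for rEEOs and 1 symbol per replicate. Kitlg and Fgf1 are lower and Fgf9 and Fgf11 higher in all rEEOs libraries than in all rBMSCs libraries, while Areg, Ereg, Nrg1 and Tgfa overlap.

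Among the FGF ligands and among the FGF receptors, some genes were higher and some lower in rEEOs. Fgf9, a secreted mitogen that acts mainly on mesenchymal receptor forms, had 1.13, 0.70 and 1.69 TPM in rBMSCs and 11.85, 17.31 and 9.79 TPM in rEEOs. Its log2 fold change was 3.77 ± 0.47 (SE; edgeR, adjusted p = 0.000689). Fgf11, an intracellular FGF homologous factor that is not secreted, was called higher at a low level, with 0.35, 0.20 and 0.02 TPM in rBMSCs and 0.92, 1.45 and 0.99 TPM in rEEOs (log2 fold change 3.47 ± 0.67, SE; edgeR, adjusted p = 0.00451). The groups did not overlap for either gene.

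Fgf1, the ligand that binds all FGF receptors, was called lower. It had 9.68, 8.98 and 10.66 TPM in rBMSCs and 5.08, 0.78 and 0.73 TPM in rEEOs, with a log2 fold change of -2.66 ± 0.54 (SE; edgeR, adjusted p = 0.00533) and of -3.56 without rEEOs replicate 1, the library in which it was highest. Fgf13, Fgf18 and Fgf21 were below the count filter, and most of their counts came from 1 or 2 rEEOs libraries. Fgf13 was at 12, 7 and 2 counts in rEEOs, with no count in rBMSCs. For Fgf18 the counts were 1, 5 and 3 in rBMSCs and 25, 1 and 4 in rEEOs. For Fgf21 they were 1, 1 and 0 in rBMSCs and 1, 1 and 18 in rEEOs. No difference can be read from these at this depth.

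Among the FGF receptors held, Fgfr1, the main receptor of mesenchymal cells, had 36.08, 35.15 and 32.63 TPM in rBMSCs and 1.56, 0.73 and 0.81 TPM in rEEOs. With a log2 fold change of -4.82 ± 0.21 (SE; edgeR, adjusted p = 1.23e-05), it was 1 of the members that differed most relative to its error. Fgfr3 had 3.92, 3.12 and 3.22 TPM in rBMSCs and 1.21, 0.16 and 0.06 TPM in rEEOs. It was called lower (log2 fold change -2.72 ± 0.86, SE; edgeR, adjusted p = 0.0311), but this call was lost when any library other than rEEOs replicate 1 was left out, with an adjusted p of up to 0.0754. Without rEEOs replicate 1 the log2 fold change was -4.68.

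Fgfr4 had 0.82, 0.71 and 0.99 TPM in rBMSCs and 3.07, 1.13 and 2.21 TPM in rEEOs, a smaller change in the other direction (log2 fold change 1.55 ± 0.34, SE; edgeR, adjusted p = 0.00731). Fgfrl1, which binds FGFs but lacks the kinase domain, lay between 14.16 and 16.75 TPM in rBMSCs and between 16.14 and 18.41 TPM in rEEOs (edgeR, adjusted p = 0.107). With Fgfr1 low, this receptor made up 82.9% ± 7.81 (SD, n = 3) of the FGF receptor TPM held in rEEOs and 28.6% ± 0.709 in rBMSCs, and Fgfr1 made up 4.86% ± 1.70 and 63.6% ± 0.810. The summed TPM of these receptors was 20.9 ± 1.93 in rEEOs and 54.5 ± 3.30 in rBMSCs. The sum leaves out Fgfr2, so the shares are not those of the whole family.

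Of the FGF binding proteins, which free FGFs from heparan sulfate and carry them to receptors, Fgfbp1 had no count in any rBMSCs library and 23.45, 3.81 and 11.29 TPM in the rEEOs libraries. The difference was called (edgeR, adjusted p = 0.00237). Fgfbp3 had between 0.76 and 1.36 TPM in rBMSCs and between 0.89 and 1.88 TPM in rEEOs and did not pass (edgeR, adjusted p = 0.213).

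Among the other receptor tyrosine kinases held, the 2 collagen receptors differed in opposite directions. Ddr2, a collagen receptor of connective tissue cells, had 153.01, 125.66 and 150.77 TPM in rBMSCs and 0.08, 0.02 and 0.10 TPM in rEEOs, with a log2 fold change of -10.56 ± 0.45 (SE; edgeR, adjusted p = 1.11e-05). Its relative Ddr1, the collagen receptor of epithelia, had 29.35, 27.89 and 29.10 TPM in rBMSCs and 170.92, 81.85 and 113.56 TPM in rEEOs, with a log2 fold change of 2.25 ± 0.17 (SE; edgeR, adjusted p = 8.96e-05). rBMSCs therefore held both transcripts and rEEOs almost only Ddr1, which made up 16.8% ± 1.17 (SD, n = 3) of their sum in rBMSCs and 99.9% ± 0.0322 in rEEOs.

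For 2 further receptors the ligand was measured too. Kit, the stem cell factor receptor, had no count in rBMSCs and 9.99, 0.28 and 1.71 TPM in rEEOs, or 615, 18 and 108 counts. It was at least 68.2-fold higher in rEEOs (edgeR, adjusted p = 0.0163), but only at least 22.5-fold higher without replicate 1, and with limma on log2(TPM + 1) over all genes its adjusted p was 0.107. Kit is also a gene of haematopoietic progenitors and mast cells. Of the 5 haematopoietic markers, Cd68 had 31.78, 132.55 and 105.24 TPM in the rEEOs libraries and between 0.11 and 0.49 TPM in rBMSCs, Aif1 had 0.48, 1.25 and 0.23 TPM and no TPM in rBMSCs, and Csf1r, Laptm5 and Spi1 were at no more than 3 counts in rEEOs. Their part in the level of Kit was not tested. Kitlg, which encodes stem cell factor, had 6.86, 5.46 and 6.98 TPM in rBMSCs and 0.34, 0.02 and 0.06 TPM in rEEOs (log2 fold change -5.38 ± 0.69, SE; edgeR, adjusted p = 0.000754, and -6.88 without rEEOs replicate 1). Kitlg counts in rEEOs were 22, 1 and 4, with the most in replicate 1, which also had the most Kit counts.

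Mst1r, the receptor RON of macrophage-stimulating protein, had 0.22, 0.05 and 0.10 TPM in rBMSCs and 12.15, 7.26 and 4.99 TPM in rEEOs. Its log2 fold change was 6.24 ± 0.51 (SE; edgeR, adjusted p = 0.000108) and 6.94 without rBMSCs replicate 1. Its ligand gene Mst1, with 4, 11 and 4 counts in rEEOs and 0 in rBMSCs, was not tested. Met, the receptor of hepatocyte growth factor, had 8.23, 6.33 and 7.88 TPM in rBMSCs and 22.98, 4.62 and 7.19 TPM in rEEOs and did not pass (edgeR, adjusted p = 0.133). Insr, the insulin receptor, had 5.97, 4.96 and 5.68 TPM in rBMSCs and 19.65, 4.41 and 4.18 TPM in rEEOs (edgeR, adjusted p = 0.165). For both, rEEOs replicate 1 was far above all other libraries in TPM, and the other rEEOs libraries were within or below the rBMSCs range. In the fit to scaled counts without that replicate, the log2 fold changes were 0.22 for Met and 0.07 for Insr (edgeR, adjusted p = 0.32 and 0.603).

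**Figure D4:**
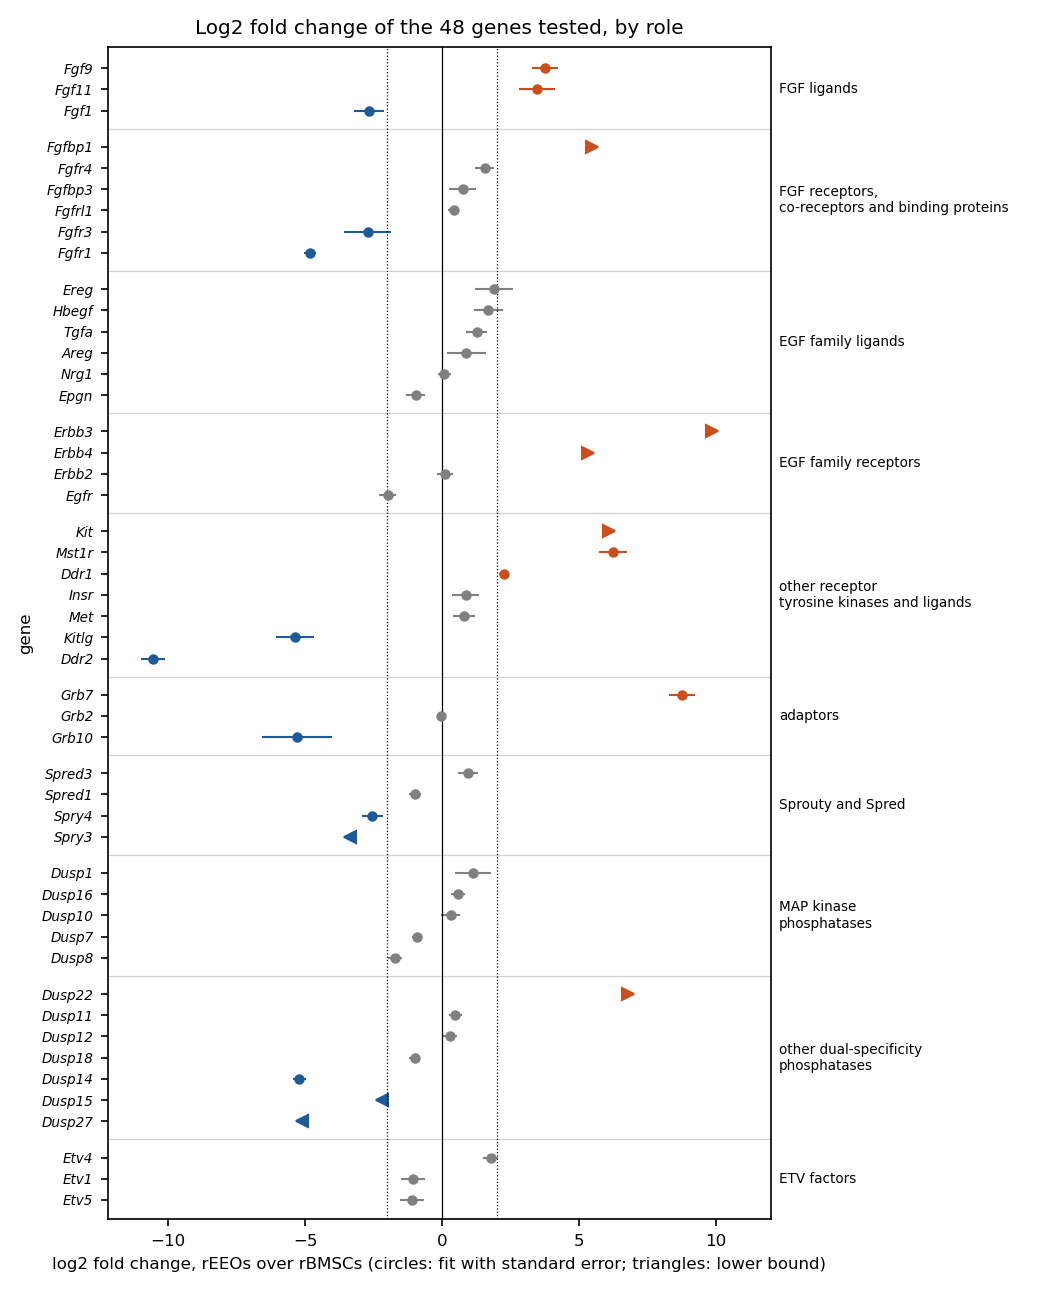
Log2 fold change (rEEOs over rBMSCs) of the 48 members tested, grouped by role, with circles for fitted values and their SE and triangles for lower bounds of genes with no more than 3 counts in each library of 1 cell type. Orange marks the 10 genes called higher, blue the 11 called lower and grey the rest, and dotted lines mark a log2 fold change of 2 in each direction.

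The receptor-binding adaptors Grb7 and Grb10, which belong to 1 family, took opposite sides. Grb10, an inhibitor of insulin and IGF receptor signaling, had 162.19, 148.16 and 170.35 TPM in rBMSCs, the highest level of any member there, and 11.30, 0.21 and 0.90 TPM in rEEOs. The rEEOs libraries spread over 684, 12 and 53 counts, and the log2 fold change was -5.29 ± 1.28 (SE; edgeR, adjusted p = 0.0111) and -7.78 without replicate 1. Grb7, which binds ERBB receptors, had 0.10, 0.13 and 0.21 TPM in rBMSCs and 48.35, 72.21 and 54.08 TPM in rEEOs (log2 fold change 8.76 ± 0.47, SE; edgeR, adjusted p = 2.23e-05). Grb2, the general link from receptors to RAS, had 70.15, 72.14 and 73.67 TPM in rBMSCs and 81.44, 46.57 and 52.82 TPM in rEEOs, with a log2 fold change of -0.04 ± 0.13 (SE; edgeR, adjusted p = 0.785) whose sign turned with the scaling of the libraries. The adaptor Shc4 was below the filter at 11, 8 and 4 counts in rBMSCs against 0, 3 and 2 in rEEOs.

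Grb7 lies close to Erbb2 in the rat genome, with Mien1 as the only protein-coding gene between them in RefSeq of the GRCr8 assembly, a region looked at after the values were seen. The 3 neighbours differed from each other. Mien1 had 39.06, 33.42 and 31.46 TPM in rBMSCs and 91.55, 97.30 and 111.17 TPM in rEEOs (log2 fold change 1.85 ± 0.24, SE; edgeR, adjusted p = 0.000792), between the 0.10 of Erbb2 and the 8.76 of Grb7 on the same scale.

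Sequences upstream of the genes called are shown for 5 members, 3 that share a motif among the genes higher in rEEOs and 2 from the genes lower in rEEOs that hold repeated motifs. The 250 bases before the first listed start were taken from RefSeq (assembly GRCr8), which is not the build the authors aligned to, and matched 46 of the 56 members, with 8 of the 10 genes called higher and 9 of the 11 called lower. Erbb3, Grb7, Fgfr1 and Ddr2 have no entry. Both strands were searched for an E-box with the letters CAGGTG, a GC box with the letters GGGCGG and a TATA box with the letters TATAAA. They were also searched for the AP-1 site TGANTCA, for an ETS site with the letters CCGGAAG and for the cyclic AMP element TGACGTCA. Capitals below mark the matches on either strand, so that CCGCCC is a GC box read from the other strand. The windows are chr20:3048737-3048986 (plus strand) for Ddr1, for which RefSeq lists 2 starts, chr8:117475718-117475967 (plus strand) for Mst1r, chr14:71318633-71318882 (plus strand) for Fgfbp1, chr14:90816388-90816637 (minus strand) for Grb10 and chr7:36782410-36782659 (plus strand) for Kitlg, each printed in the direction of its gene.
Ddr1: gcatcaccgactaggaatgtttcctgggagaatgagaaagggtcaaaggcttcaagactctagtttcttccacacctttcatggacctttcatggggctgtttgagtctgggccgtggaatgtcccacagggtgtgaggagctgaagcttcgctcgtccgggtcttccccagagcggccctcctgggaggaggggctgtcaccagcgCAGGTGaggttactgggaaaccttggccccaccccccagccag
Mst1r: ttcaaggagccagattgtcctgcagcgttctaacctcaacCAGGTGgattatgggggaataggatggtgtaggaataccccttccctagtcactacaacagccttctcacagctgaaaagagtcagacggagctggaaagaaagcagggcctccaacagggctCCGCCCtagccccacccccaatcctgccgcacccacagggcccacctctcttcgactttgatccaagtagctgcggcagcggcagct
Fgfbp1: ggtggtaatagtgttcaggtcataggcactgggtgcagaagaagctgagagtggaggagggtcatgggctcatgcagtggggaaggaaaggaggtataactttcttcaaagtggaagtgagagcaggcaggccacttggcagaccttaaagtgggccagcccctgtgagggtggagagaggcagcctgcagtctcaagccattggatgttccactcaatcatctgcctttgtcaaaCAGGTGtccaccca
Grb10: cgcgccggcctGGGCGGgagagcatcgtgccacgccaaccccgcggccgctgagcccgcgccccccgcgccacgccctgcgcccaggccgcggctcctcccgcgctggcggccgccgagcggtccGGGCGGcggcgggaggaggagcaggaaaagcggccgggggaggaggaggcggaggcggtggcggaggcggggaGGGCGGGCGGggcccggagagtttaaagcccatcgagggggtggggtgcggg
Kitlg: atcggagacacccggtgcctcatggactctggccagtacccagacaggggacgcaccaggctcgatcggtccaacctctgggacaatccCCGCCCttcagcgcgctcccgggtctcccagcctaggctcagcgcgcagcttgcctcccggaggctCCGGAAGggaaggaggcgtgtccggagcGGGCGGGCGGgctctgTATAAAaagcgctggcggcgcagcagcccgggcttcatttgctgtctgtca

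CAGGTG was found in 3 of the 8 genes called higher, with its first base 43 bases before the start in Ddr1, 210 in Mst1r and 14 in Fgfbp1, in none of the 9 called lower, and in 15.6% of the 27457 genes with a window. Over all members matched it was found in 4 of 46, or 8.7%, the fourth being Insr, which was not called. GGGCGG was found in 5 of the 8 and 5 of the 9, compared to 32.4% of all genes, with 4 matches in Grb10, of which the last 2 overlap. Over all members matched GGGCGG was found in 29 of 46, or 63%, so it was not particular to the genes called. TATAAA was found in none of the 8 and in 3 of the 9 (Spry3, Dusp14 and Kitlg), compared to 13.1% of all genes and 10.9% of the members matched. Among these 17 genes, TGANTCA was found in Spry3 and CCGGAAG in Kitlg, compared to 6.36% and 7.74% of all genes. None of them held TGACGTCA, compared to 1.7%. These are matches of letters in a short window and were not tested.

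Of the 9 Sprouty, Spred and MAP kinase phosphatase genes tested, 5 were lower in rEEOs with an adjusted p below 0.05 and 0 were higher. The copy used here held only 4 of 7 Sprouty and Spred symbols and 5 of 10 MAP kinase phosphatase symbols. Dusp6 was not among them, so the count covers only part of these genes. Of all genes tested, 63.4% had such a p in either direction. In rEEOs, 13.3% of all genes were called lower and a further 16.8% were lower with such a p and a smaller change. The shares for higher were 16.3% and 16.9%. Of the Sprouty and Spred genes, which block the path from receptors to RAS and RAF, Spry4 had 9.87, 8.74 and 10.05 TPM in rBMSCs and 2.75, 0.98 and 0.72 TPM in rEEOs and was called lower (log2 fold change -2.54 ± 0.39, SE; edgeR, adjusted p = 0.00158). Spry3 had 1.75, 1.20 and 0.88 TPM in rBMSCs and 0, 0.03 and 0 TPM in rEEOs, at least 10.3-fold lower (edgeR, adjusted p = 0.000432). Spred1 had 36.20, 25.76 and 36.94 TPM in rBMSCs and 27.02, 4.45 and 5.66 TPM in rEEOs, and it passed the adjusted p but not the fold threshold (log2 fold change -0.99 ± 0.23, SE; edgeR, adjusted p = 0.00998). In TPM its rEEOs replicate 1 lay within the rBMSCs range. In unscaled counts, from which the test started, that library had 1009 and the rBMSCs libraries between 1082 and 1265. Spred3 had 4.59, 3.91 and 4.53 TPM in rBMSCs and 4.97, 9.05 and 5.65 TPM in rEEOs and did not pass (edgeR, adjusted p = 0.0536). Without rEEOs replicate 1 its log2 fold change was 1.24 (edgeR, adjusted p = 0.00205).

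None of Dusp1, Dusp7, Dusp8, Dusp10 and Dusp16, the 5 members listed as MAP kinase phosphatases, which remove phosphate from ERK, JNK or p38, was called. Dusp14, which was listed with the other dual-specificity phosphatases, is described with them. Dusp7, which acts on ERK, had 24.55, 21.45 and 23.38 TPM in rBMSCs and 14.66, 9.16 and 7.67 TPM in rEEOs (log2 fold change -0.93 ± 0.17, SE; edgeR, adjusted p = 0.00311). Dusp8 was lower too, with 7.74 ± 0.90 TPM (SD, n = 3) in rBMSCs and 1.92 ± 0.13 TPM in rEEOs (log2 fold change -1.73 ± 0.26, SE; edgeR, adjusted p = 0.00147). Dusp1, an immediate early gene, had 38.32, 38.40 and 32.46 TPM in rBMSCs and 28.74, 32.93 and 128.83 TPM in rEEOs, so that its log2 fold change of 1.13 ± 0.65 (SE; edgeR, adjusted p = 0.166) rested on replicate 3 and was -0.0055 without it. Hbegf, another immediate early gene, was highest in the same library. Dusp10 and Dusp16 did not pass (edgeR, adjusted p = 0.457 and 0.0803).

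The other dual-specificity phosphatases held some of the largest differences among the members. Dusp22, a phosphatase of the JNK pathway, had 0.03, 0 and 0 TPM in rBMSCs and 24.56, 20.05 and 19.76 TPM in rEEOs, at least 112-fold higher (edgeR, adjusted p = 2.22e-05), with the rEEOs libraries close together. Dusp14, also known as MKP6, had 66.50, 69.08 and 67.41 TPM in rBMSCs and 2.07, 1.53 and 1.01 TPM in rEEOs (log2 fold change -5.22 ± 0.24, SE; edgeR, adjusted p = 1.43e-05). RSEM gave fractional counts for Dusp14, Dusp11 and Erbb2 in all 6 libraries, so some of their reads were shared with similar transcripts. Dusp27, which RefSeq names Styxl2 and which lacks phosphatase activity, had 2.72, 3.18 and 2.74 TPM in rBMSCs and no count in rEEOs, at least 34.5-fold lower (edgeR, adjusted p = 0.000194). It is best known from muscle, and the smooth muscle genes Des and Cnn1 given above were present in the same rBMSCs libraries. Their part in the level of Dusp27 was not tested. Dusp15 was read in rBMSCs alone, with 13, 14 and 21 counts, at least 4.61-fold lower (edgeR, adjusted p = 0.00199).

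Dusp18 was lower by a smaller change, with 13.1 ± 2.00 TPM (SD, n = 3) in rBMSCs and 5.72 ± 1.96 TPM in rEEOs (2.01-fold; edgeR, adjusted p = 0.00403). Dusp11, an RNA phosphatase, had 28.9 ± 0.17 and 32.7 ± 3.90 TPM, and Dusp12 had 11.4 ± 0.945 and 11.4 ± 0.875 TPM, and neither passed (edgeR, adjusted p = 0.119 and 0.322). Shc2, Dusp13 and Egf stayed below the filter with at most 9 counts in any library.

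The ETV factors, ETS family genes that FGF and ERK signaling raises in many tissues, included 1 that passed the adjusted p. Etv4 had 4.42, 4.67 and 4.76 TPM in rBMSCs and 18.24, 14.57 and 7.82 TPM in rEEOs (log2 fold change 1.78 ± 0.28, SE; edgeR, adjusted p = 0.00185). Etv5 had 32.50, 32.73 and 34.62 TPM in rBMSCs and 28.75, 7.50 and 7.10 TPM in rEEOs, and Etv1 had 1.99, 1.54 and 1.82 TPM against 1.26, 0.74 and 0.27 TPM. All rEEOs values of Etv5 and Etv1 were below all rBMSCs values, but neither passed the test (edgeR, adjusted p = 0.0618 and 0.0769). Without rEEOs replicate 1 both passed the adjusted p, with log2 fold changes of -1.77 and -1.39 (edgeR, adjusted p = 1.49e-05 and 0.0219).

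Many of the members that spread widely in rEEOs did so because of replicate 1. Its TPM exceeded 2 times that of both other rEEOs replicates for 17 of the 48 members, or 35.4%, compared to 22% of all genes tested, and fell below 1/2 of both for 2 members, Areg and Ereg, or 4.17% compared to 3.19%. These shares moved with transcript length. Of the 32 members longer than the median gene, 16 were more than 2 times higher in replicate 1, or 50%, and of the 16 at or under that length 1 was, or 6.25%, compared to 33.0% and 11.2% of all genes. Grb10, Kit, Fgfr3, Fgf1, Erbb4, Insr, Met, Egfr and Etv5 were among the long members that were higher in it. The part of transcript length in these values was not tested.

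**Figure D5:**
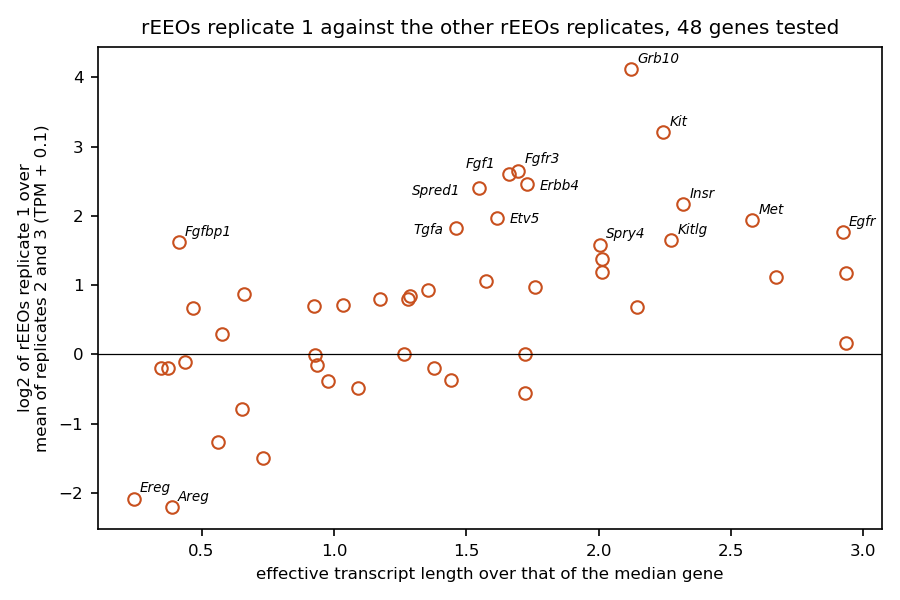
Log2 ratio of the TPM of rEEOs replicate 1 to the mean of replicates 2 and 3 (with 0.1 TPM added to both) against the effective transcript length relative to the median gene, with 1 circle per member tested and names where the ratio exceeds 1.5 in size. Of the 32 longer members 50% were above 2 times both other replicates, and Areg and Ereg, 2 of the shortest, were the lowest.

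The rest of the pathway was read from 4 lists of genes that are not members, of which 61 of 76 genes were held and all were tested. In all, 13 (21.3%) were called higher and 11 (18%) lower, compared to 16.3% and 13.3% of all genes tested. A further 5 were higher and 20 lower by a smaller change, and 12 did not pass. Of the 23 genes of the relay from RAS to ERK, 2 (8.7%) were called higher, 1 (4.35%) lower, 3 and 13 differed by less, and 4 did not pass, with a median log2 fold change of -0.99 against 0.08 for all genes. Cblc, an epithelial ubiquitin ligase that marks active receptors for removal, was absent from the rBMSCs counts and reached 268 ± 42.7 TPM (SD, n = 3) in rEEOs, a difference of at least 1514-fold (edgeR, adjusted p = 3.86e-05). Rps6ka1, the ERK-activated kinase RSK1, had 1.19 ± 0.131 TPM in rBMSCs and 52.4 ± 11.1 TPM in rEEOs (log2 fold change 5.69 ± 0.15, SE; edgeR, adjusted p = 4.59e-06). Mras had 42.1 ± 1.69 TPM in rBMSCs and 0.447 ± 0.346 TPM in rEEOs (log2 fold change -6.38 ± 0.46, SE; edgeR, adjusted p = 6.89e-05). The relay thus differed by small amounts for most genes and by large ones for 3.

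Of the 18 genes for heparan sulfate, the co-receptor of FGFs, 7 (38.9%) were called lower and 2 (11.1%) higher, 5 and 2 differed by less in those directions, and 2 did not pass. The proteoglycan cores Sdc2, Gpc1 and Hspg2 had 778 ± 45.2, 326 ± 7.70 and 227 ± 34.7 TPM (SD, n = 3) in rBMSCs and 22.0 ± 15.3, 0.417 ± 0.406 and 18.9 ± 12.1 TPM in rEEOs. The 2 genes higher by less were also cores. Sdc4 had 68.7 ± 0.795 TPM in rBMSCs and 222 ± 80.4 TPM in rEEOs (log2 fold change 1.95 ± 0.29, SE; edgeR, adjusted p = 0.00148). Sdc3 had 2.01 ± 0.156 and 6.11 ± 4.06 TPM. Gpc3, a glypican, and Hs3st1, a sulfotransferase, were the 2 called higher, at 8.16 ± 5.97 and 6.52 ± 4.50 TPM in rEEOs with at least 68.5-fold and 15.7-fold differences (edgeR, adjusted p = 0.0025 and 0.000544). The median log2 fold change of the list was -1.37.

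The 15 genes around the release and activation of ligands comprised proteases and their partners, the inhibitors Spint1, Spint2 and Timp3, and the ligand Hgf. Of these 15, 8 (53.3%) were called higher, among them both Spint genes, and 3 (20%) lower, among them Hgf, while 1 was lower by a smaller change and 3 did not pass. The counts and the median log2 fold change of 4.03 thus mix genes with opposed roles. The serine protease St14 (matriptase), which cleaves the precursor of hepatocyte growth factor, and the inhibitors Spint1 and Spint2 that restrain it, were all high in rEEOs, at 184 ± 66.8, 286 ± 17.4 and 1624 ± 213 TPM (SD, n = 3). In rBMSCs they had 0.290 ± 0.0265, 0.0167 ± 0.0289 and 6.69 ± 0.652 TPM (edgeR, adjusted p at most 1.14e-05). Hgf, the ligand of Met, had 1.66 ± 0.485 TPM in rBMSCs and no count in rEEOs, at least 13.2-fold lower (edgeR, adjusted p = 0.000583). The membrane metalloproteases Adam12 and Adam19 had 123 ± 15.4 and 79.6 ± 6.68 TPM in rBMSCs and less than 0.1 TPM on average in rEEOs. Adam8 was called higher, at 0.157 ± 0.0666 TPM in rBMSCs and 15.8 ± 6.96 TPM in rEEOs (edgeR, adjusted p = 0.000179). Adam17 was lower by a smaller change, at 30.8 ± 1.66 and 14.2 ± 5.23 TPM. Adam9 and Adam10 did not pass, at 34.8 ± 2.21 and 26.6 ± 2.55 TPM in rBMSCs and 39.5 ± 39.3 and 21.8 ± 19.7 TPM in rEEOs. Of the 5 transcripts often used as readouts of ERK activity, Epha2 was called higher, with 13.6 ± 1.28 TPM in rBMSCs and 73.9 ± 15.01 TPM in rEEOs (log2 fold change 2.68 ± 0.14, SE; edgeR, adjusted p = 2.12e-05), 1 was lower by a smaller change and 3 did not pass.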

How the data were processed

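Bulk RNA-seq of 3 rEEOs and 3 rBMSCs samples was analysed. Per the labels and the methods of the study, the authors trimmed the reads with Trim Galore, aligned them with Bowtie2 2.2.5 to the rat genome (Rnor 6.0 in the submitters' processing notes) and estimated expression with RSEM. For each gene and library the table deposited by the authors holds an expected count, which need not be whole, and the authors' TPM and FPKM values. FPKM entered no result, and relative transcript lengths were computed from expected counts over TPM. The authors' means per group were not used either. The strand setting of the counting is not given in the sources used here. The copy analysed is cut within its last row and holds 13728 genes. The members and all gene lists were chosen with earlier results of these data known.

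After rounding of the expected counts, 10607 genes reached 10 counts in 3 or more libraries and were tested with edgeR 4.0.16 (TMM factors between 0.866 and 1.19, quasi-likelihood test, cell type as the only term, Benjamini-Hochberg adjustment over all genes tested) in R 4.3.3. An exact permutation test of 1 gene has 0.1 as its smallest two-sided p in this design. Folds against a cell type with at most 3 counts in each library are lower bounds, computed against 3 counts in 1 library (0.181 to 0.262 CPM), and cover counting error only. Replicates differed by more than sampling noise (chi-square per degree of freedom of 3.18 or more). All members called were named, with the 2 most abundant others of each role, members under the filter with 10 or more counts in a library, and up to 3 pathway genes per list and direction. Other members, Mien1 and some other pathway genes were added after their values were seen.

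In data simulated for this comparison over 10607 genes, with 200 changed by a log2 fold change of 3, 188 were found by edgeR, 195 by DESeq2 1.42.0 and 177 by limma 3.58.1, with 5, 18 and 6 false calls. The simulated cell types shared 1 dispersion per gene, whereas the median SD of log2(CPM + 1) was 0.340 in rEEOs and 0.088 in rBMSCs. These numbers are therefore a check of the code and not error rates of the real comparison. Alternatives were DESeq2's test and size factors, library size only, filters of 1 or 50 counts, limma on log2(TPM + 1) or log2(TPM + 0.1), an absolute log2 fold change above 1, a test against a fold change of 2, a replicate block and each library left out. By gene ID, 55 of the 56 members were matched in RefSeq, where Dusp13 and Dusp27 bear other symbols. Python 3.11.15, pandas 2.3.3, numpy 2.4.6 and matplotlib 3.10.9 were used.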

Additional observations from a re-analysis of the deposited data

How the results depend on the processing

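Of the 21 members called, 20 stayed called in the same direction with each library left out, and Fgfr3 did not. With 1 library left out, between 10 and 12 members were called higher and between 10 and 12 lower, and between 13 and 16 and between 10 and 15 of the pathway genes. The members called higher, 10 as reported, were 6 with a filter of 50 counts in 3 libraries, which tests fewer genes, 6 with limma on log2(TPM + 1), and 6 without its filter. The pathway genes called lower, 11 as reported, were 25 with an absolute log2 fold change above 1 and 17 in the test against a fold change of 2. Over all genes, library size only shifted the median log2 fold change by 0.38 and called 2002 higher and 1207 lower, compared to 1733 and 1412 as reported. An absolute log2 fold change above 1 gave 2663 and 2287, and limma on log2(TPM + 1) called 1121 higher, or 1124 without its filter. The Fgfr3 call was also lost with library size only (adjusted p = 0.056), with limma on log2(TPM + 1) (difference -1.66) and against a fold change of 2 (edgeR, adjusted p = 0.0818). On log2(TPM + 1) without a filter, 9 of the named genes lost their call, Fgfr3 with Erbb4, Fgf11, Spry3, Dusp15, Dusp27, Kit, Hgf and Ddr1 (1.98). Erbb2 changed sign with limma on log2(TPM + 1) with or without a filter (-0.21), on log2(TPM + 0.1) (-0.23) and without rEEOs replicate 1 (-0.25). Dusp1 lay between -0.0055 (without rEEOs replicate 3) and 1.58 with 1 library left out, and Grb2 between -0.099 and 0.049 (without rEEOs replicate 2). Grb2 was 0.34 when scaled by library size. Apart from the values without a library given beside each result, the cause was not tested.

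The labels do not say whether the replicate numbers pair the samples. Same-numbered samples had correlations of 0.17, 0.19 and -0.17 in their deviations from the group means, and the others between -0.29 and 0.26. With 3 samples per group these values cannot decide whether samples were paired. With a replicate block, 10 members were called higher and 12 lower, with Egfr added at -2.07, and 13 and 11 pathway genes. Genes below about 3 counts in a library could not be resolved at this depth.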
